A study of Homo sapiens with 9 samples.

Results

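The class II and class III phosphoinositide 3-kinase (PI3K) genes PIK3C2A, PIK3C2B, PIK3C2G, PIK3C3 and PIK3R4 were followed in H69, a human small cell lung cancer cell line. Members were all probe sets annotated to exactly 1 gene symbol among these 5, which gave 21 of 54675 probe sets and 5 of the 19775 genes with such a probe set. PIK3C2A had 9 probe sets, PIK3C3 had 7, PIK3R4 had 3, and PIK3C2B and PIK3C2G had 1 each. RNA was hybridised to Affymetrix HG-U133 Plus 2 arrays, on which a probe set is a group of short probes read together as 1 log2 level. H69 cells had been exposed for 24 h to PIK75 at 100 nM (3 arrays, numbered 1, 3 and 5), to TGX221 at a labelled 1 mM (3 arrays, numbered 2, 3 and 5), or to the solvent DMSO as control (3 arrays, numbered 1, 3 and 5). PIK75 is known as an inhibitor directed at the class I catalytic subunit p110α and TGX221 as one directed at p110β, the product of PIK3CB. No second source was at hand to check the unit of that TGX221 dose. Nothing in the labels says that the 3 arrays of a group came from separate cultures. The p-values therefore reflect only how far these arrays scatter, a spread that may be technical, and all groups share 1 cell line.

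Class II enzymes are single large proteins that phosphorylate inositol lipids on endosomes, on clathrin-coated pits and at the base of the primary cilium. PIK3C2A carries a clathrin-binding amino terminus and acts late in the formation of clathrin-coated vesicles, PIK3C2B acts at endosomes, and PIK3C2G is known mainly from liver, where it acts on early endosomes. PIK3C3, also called VPS34, is the sole class III catalytic subunit. It makes phosphatidylinositol 3-phosphate (PI3P), the lipid that recruits FYVE and PX domain proteins to endosomes and starts autophagosome formation, and it works bound to PIK3R4, also called VPS15, a large protein with a pseudokinase-like domain and WD repeats. BECN1 joins both, together with ATG14 in the complex for autophagy or UVRAG in the complex for endosomes.

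The promoters of the members differ in base composition and are shown for the genes whose responses are set against each other below: PIK3C2A and PIK3R4, whose brightest probe sets fell with PIK75, PIK3C3, whose brightest probe set did not pass the test, and PIK3C2G, whose probe set was dim. Each line runs 5′ to 3′ from 150 bases before an annotated start to the first 20 bases from it, taken from RefSeq on GRCh38.p14, with the ETS-family motif CCGGAAGT in capitals. For PIK3C2G the start used lies inside the gene, which begins at base 18242961 of chromosome 12.
PIK3C2A, chr11:17207967-17208136, minus strand: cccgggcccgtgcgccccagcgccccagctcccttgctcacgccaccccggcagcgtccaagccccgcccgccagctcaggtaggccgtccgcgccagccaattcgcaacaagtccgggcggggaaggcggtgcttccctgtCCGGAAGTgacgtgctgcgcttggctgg
PIK3R4, chr3:130746810-130746979, minus strand: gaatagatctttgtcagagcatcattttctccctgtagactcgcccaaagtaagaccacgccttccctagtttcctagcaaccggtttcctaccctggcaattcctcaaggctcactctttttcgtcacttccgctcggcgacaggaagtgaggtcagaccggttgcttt
PIK3C3, chr18:41955084-41955253, plus strand: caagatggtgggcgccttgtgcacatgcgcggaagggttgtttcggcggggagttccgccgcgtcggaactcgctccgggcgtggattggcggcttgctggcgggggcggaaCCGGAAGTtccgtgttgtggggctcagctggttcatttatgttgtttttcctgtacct
PIK3C2G, chr12:18261368-18261537, plus strand: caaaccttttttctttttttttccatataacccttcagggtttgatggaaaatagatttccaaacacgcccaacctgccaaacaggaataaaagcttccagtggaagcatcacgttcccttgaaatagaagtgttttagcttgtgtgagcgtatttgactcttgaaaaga
The G+C content of these windows was 73.5% in PIK3C2A, 71.8% in PIK3C2B, 61.8% in PIK3C3, 50.6% in PIK3R4 and 38.2% in PIK3C2G. The last stood at the 8.13th percentile of all promoters of that length. Because that window surrounds a start inside PIK3C2G, it does not describe the outermost start of the gene. CpG pairs numbered 19 in PIK3C2A, 17 in PIK3C3, 8 in PIK3R4 and 3 in PIK3C2G. The motif CCGGAAGT, searched on both strands, began 8 bases before the start of PIK3C2A and 38 bases before that of PIK3C3. These exact letters were not in the windows of the other 3 genes. The motif was present in 3.56% of 35116 promoters. Only the exact letters were searched, so a window without them may hold a shorter or related site: that of PIK3R4 holds GGAAGT. The letters TGACGT, held by 5.95% of promoters, overlapped the last base of that motif in PIK3C2A and were in none of the other 4 windows. These matches describe the letters only: the gene with the largest fall and a gene whose brightest probe set did not pass the test both hold CCGGAAGT.

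The values are normalised log2 levels made with RMA, which aligns the arrays on each other, so a change shared by most genes cannot be measured. Array medians lay between 7.26 and 7.33. Two-sided moderated tests were fitted with limma over 54613 probe sets, and a probe set was called at an adjusted p below 0.05 after Benjamini-Hochberg adjustment over all of them. With PIK75, 50.2% of probe sets were called against control, 30.3% higher and 19.9% lower. That balance depends on the scaling: 39.6% of the called probe sets were lower as deposited, 54.1% with arrays centred on their medians, 57.8% after cyclic loess, 69.6% with scaling on the spikes added to the RNA before labelling and 97.8% with scaling on the hybridisation spikes, which moved the median change of all probe sets to -0.27 from 0.08 log2 units. With TGX221, 0.269% were called, and 37.2% were called between PIK75 and TGX221. Each inhibitor was set against the same 3 control arrays. The hybridisation spikes, which are added in equal amounts after labelling, read 0.35 log2 units higher on PIK75 than on control arrays, and the actin 3′ minus 5′ difference, a sign of RNA length and quality, averaged 0.711 on PIK75 arrays (0.467 to 1.13, the highest on replicate 5), 0.332 on TGX221 arrays and 0.323 on control arrays (0.239 to 0.443). Results refitted with the actin difference as a covariate, or rescaled on these spikes, are given below. Whether either is a cause of the changes was not tested. The 7 neuroendocrine markers measured for this cell type lay between 9.18 and 13.3 on control arrays. The 10 markers measured of leukocytes, of fibroblasts or endothelium and of other lung epithelium lay between 5.97 and 9.30, so a level in that range does not by itself show expression. With PIK75, 7 of these 10 were higher and none lower, while 3 of the 7 neuroendocrine markers were lower and 1 was higher.

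PIK3C2A fell with PIK75 on the 4 probe sets with its highest levels, by 0.30 to 0.64 on the log2 scale. The brightest, 213070_at, read 10.32, 10.34 and 10.29 on the PIK75 arrays, 10.83, 11.02 and 10.76 on the TGX221 arrays, and 10.89, 11.02 and 10.95 on the control arrays. All 3 PIK75 arrays lay below all 6 others, whereas the TGX221 and control arrays overlapped. The mean was 10.31 ± 0.025 with PIK75 and 10.96 ± 0.065 in control (SD, n = 3 each), a change of -0.64 (SE 0.068, 95% interval -0.79 to -0.49), or 1.56-fold lower, with an adjusted p of 1.19e-05 in limma. By this log2 change, 3913 of the 54613 probe sets lay lower still. This gene encodes the class II enzyme of clathrin-coated pits, and its fall was past the threshold under every one of the 21 alternative settings run, though with the gene's 9 probe sets averaged first it was -0.17 (adjusted p 0.0156). The exact permutation test of 3 against 3 arrays cannot give a p below 0.1, so single-gene statements rest on the fit over the whole table.

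The other 3 probe sets of PIK3C2A that fell showed more spread between arrays. Probe set 226094_at read 9.76, 9.70 and 9.32 with PIK75, 9.66, 9.94 and 9.78 with TGX221, and 10.06, 10.00 and 9.92 in control, and fell by 0.40 with PIK75 (SE 0.107, adjusted p 0.00896). Probe set 235792_x_at read 8.99, 9.04 and 8.76 with PIK75, 9.12, 9.30 and 9.16 with TGX221, and 9.19, 9.24 and 9.27 in control, and fell by 0.30 (SE 0.0749, adjusted p 0.00622). On both probe sets PIK75 replicate 5 was the lowest array of the 9. On 1553694_a_at the levels were 8.22, 8.18 and 7.31 with PIK75, 8.08, 8.44 and 8.24 with TGX221, and 8.58, 8.56 and 8.24 in control. This probe set fell by 0.56 (SE 0.201, adjusted p 0.0375), and 1 array carried most of it: without PIK75 replicate 5, the array with the largest actin 3′ minus 5′ difference, the change was -0.26 with an adjusted p of 0.0939. Its call was also lost without control replicate 1 (-0.50, adjusted p 0.106) or control replicate 3 (-0.51, 0.107). With the actin difference as a covariate, its change was -0.06 (adjusted p 0.786), that of 226094_at -0.19 (0.199) and that of 235792_x_at -0.20 (0.115), none of which passed.

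The remaining 5 probe sets of PIK3C2A did not pass the test. Their means lay between 4.80 and 7.14 with PIK75 and between 4.89 and 6.90 in control, and their log2 changes between -0.10 and 0.24. The highest of the 5, 241905_at, averaged 7.14 ± 0.121 with PIK75 and 6.90 ± 0.205 in control (SD, n = 3 each). Its change was 0.24 (SE 0.138, adjusted p 0.164 in limma), with a 95% interval of -0.06 to 0.54. As deposited, that interval for this reading did not reach the fall of 213070_at. These levels lay in the range of the markers of other cell types, so the reading need not follow the transcript. Its lowest change among the alternatives was -0.11. The 5 probe sets thus gave no fall like that of the brightest 4, and which transcripts or parts of the gene each probe set covers was not analysed here.

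**Figure D1:**
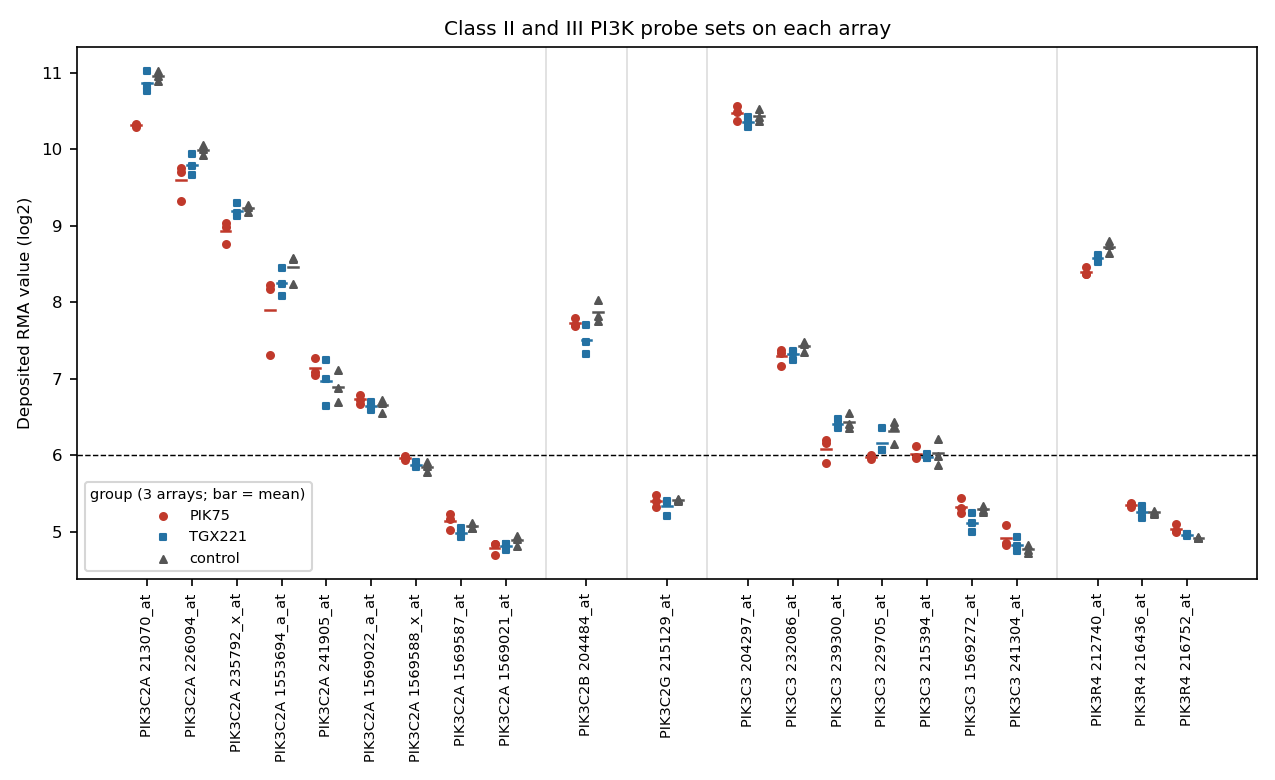
Normalised log2 level (vertical axes) of the member probe sets on each array, with PIK75, TGX221 and control arrays from left to right, points for arrays, bars for group means and a dashed line at a level of 6. For PIK3C2A 213070_at the 3 PIK75 arrays sit between 10.29 and 10.34, below every TGX221 and control array, while PIK3C3 204297_at overlaps across the 3 groups.

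PIK3C2B, a class II enzyme of endosomes, was not called with either inhibitor and had its lowest levels with TGX221. Its probe set 204484_at read 7.69, 7.71 and 7.79 with PIK75, 7.48, 7.71 and 7.32 with TGX221, and 7.76, 8.03 and 7.82 in control. The TGX221 arrays lay below all control arrays, and the PIK75 arrays overlapped with them. The change with TGX221 was -0.37 (SE 0.0948, unadjusted p 0.00235, adjusted p 0.101 in limma), and 196 of the 54613 probe sets had a lower log2 change in that comparison. It stayed uncalled in 18 of 21 alternatives, with adjusted p-values up to 0.361. It was past the threshold when arrays were weighted by quality (adjusted p 0.0352), when arrays were scaled on the hybridisation spikes (0.0232) and without TGX221 replicate 3 (0.035), with log2 changes of -0.40, -0.43 and -0.47. In these settings 2115, 886 and 959 of all probe sets were called, beside 147 as reported. With PIK75 the change of PIK3C2B was -0.14 (adjusted p 0.225, 95% interval -0.35 to 0.07).

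PIK3C2G gave values near the low end of the arrays' range in all groups. Probe set 215129_at read 5.48, 5.40 and 5.33 with PIK75, 5.39, 5.40 and 5.21 with TGX221, and 5.43, 5.40 and 5.42 in control. The groups overlapped, and the log2 changes were -0.01 with PIK75 (adjusted p 0.867) and -0.08 with TGX221 (adjusted p 0.559). Whether H69 cells express the gene cannot be told from 1 dim probe set.

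PIK3C3, the class III catalytic subunit, did not pass the test on its brightest probe set and fell on 2 dimmer ones. On 204297_at the levels were 10.49, 10.57 and 10.37 with PIK75, 10.37, 10.42 and 10.29 with TGX221, and 10.43, 10.53 and 10.37 in control. The groups overlapped, and the change with PIK75 was 0.03 (SE 0.0665, adjusted p 0.684) with a 95% interval of -0.11 to 0.18. As deposited, that interval did not reach the fall of PIK3C2A 213070_at, and the difference between these probe sets was not tested. With scaling on the hybridisation spikes, which lowers every PIK75 value, the change of 204297_at was -0.32 (adjusted p 0.00107). Probe set 239300_at read 6.16, 6.19 and 5.91 with PIK75, 6.36, 6.39 and 6.48 with TGX221, and 6.36, 6.55 and 6.41 in control. All PIK75 arrays lay below the other 6, and it fell by 0.35 (SE 0.0805, adjusted p 0.00361). Probe set 229705_at read 5.99, 5.95 and 6.001 with PIK75, 6.07, 6.35 and 6.07 with TGX221, and 6.38, 6.43 and 6.15 in control, and fell by 0.34 (SE 0.0885, adjusted p 0.00801). With the actin difference as a covariate, 239300_at changed by -0.21 and did not pass (adjusted p 0.0835). The other 4 probe sets of PIK3C3 had log2 changes between -0.14 and 0.15, with adjusted p-values from 0.108 to 0.972.

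PIK3R4, the obligate partner of PIK3C3, fell with PIK75 on its brightest probe set. On 212740_at the levels were 8.46, 8.37 and 8.37 with PIK75, 8.62, 8.60 and 8.52 with TGX221, and 8.80, 8.74 and 8.64 in control. The 3 groups did not overlap, and TGX221 lay between the other two. The mean was 8.40 ± 0.051 with PIK75 and 8.73 ± 0.078 in control (SD, n = 3 each), a change of -0.33 (SE 0.0576, adjusted p 0.000635), or 1.26-fold lower. With TGX221 it was -0.15 (unadjusted p 0.0262, adjusted p 0.237), which did not pass. The other 2 probe sets, 216436_at and 216752_at, averaged 5.35 and 5.04 with PIK75 and 5.25 and 4.92 in control, with log2 changes of 0.10 and 0.11 that did not pass (adjusted p 0.141 and 0.0794). On both, all PIK75 arrays lay above all control arrays, with a sign opposite to that of 212740_at. PIK75 and control arrays did not overlap for 57.5% of all probe sets, and the median log2 change of all was 0.08. Every group mean of 216436_at and 216752_at was under 6, so their values do not by themselves show a rise of the transcript. With the 3 probe sets of PIK3R4 averaged first, the change was -0.04 (adjusted p 0.383).

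**Figure D2:**
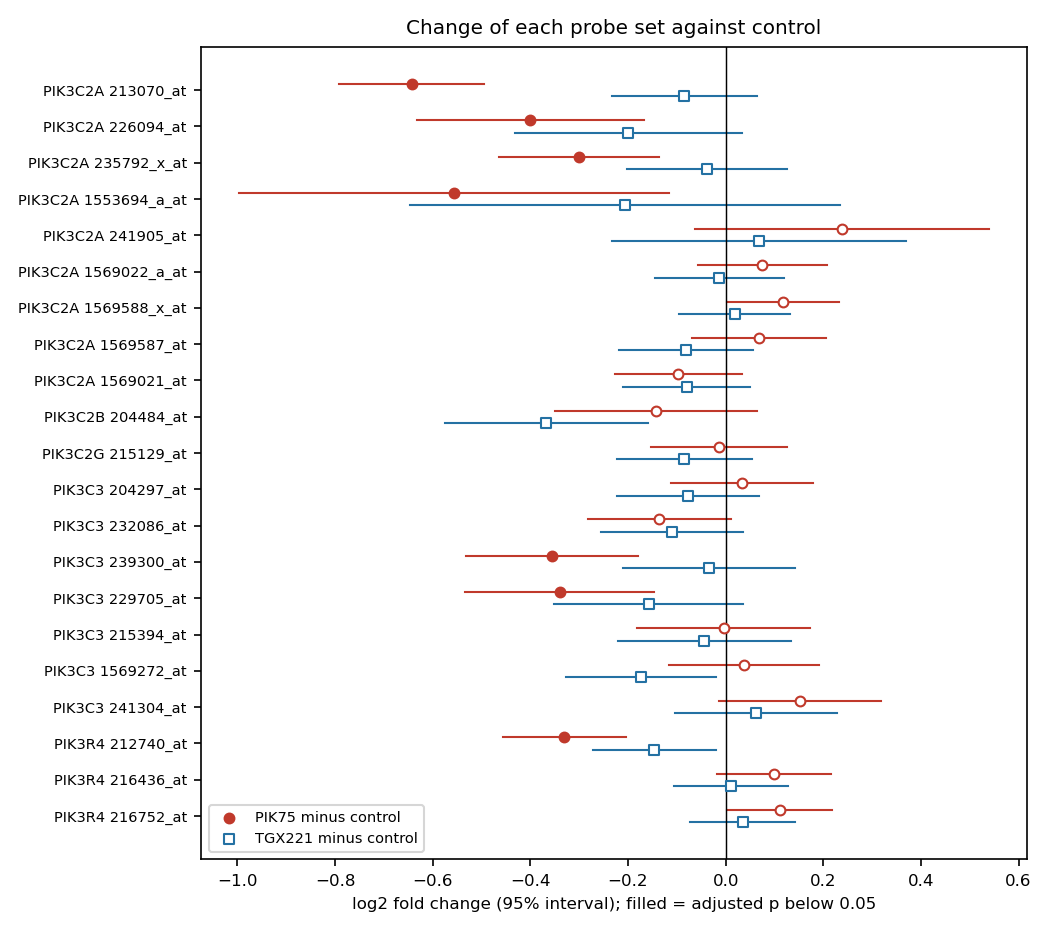
Log2 change with its 95% interval (horizontal axis) of each member probe set, for PIK75 minus control and TGX221 minus control, with filled points for an adjusted p below 0.05. The filled points are the 7 falls with PIK75, from -0.30 to -0.64, and every TGX221 point is open.

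Over the 21 member probe sets, 7 fell with PIK75, 0 rose and 14 did not pass the test. The share called was 33.3%, against 50.2% of all probe sets, and the share lower was also 33.3%, against 19.9%. Under the actin covariate 3 of the 7 falls remained past the threshold, 1 each of PIK3C2A, PIK3C3 and PIK3R4, beside 8987 lower of all 54613 probe sets. With scaling on the hybridisation spikes 20 of the 21 members were lower, beside 37576 of the 54613. The groups did not overlap for 10 of the 21, or 57.5% over all probe sets. The median log2 change was -0.01 over the members and 0.08 over all probe sets. The 7 falls comprised 4 of the 9 probe sets of PIK3C2A, 2 of the 7 of PIK3C3 and 1 of the 3 of PIK3R4. Brightness ran alongside the calls. Of the 8 members with every group mean under 6, 0 were called by limma, 2 had an unadjusted p under 0.05, and 18.5% of all such dim probe sets were called. Of the other 13, 7 were called, all lower, where 59.7% of all such probe sets were called and 24.8% were lower. Among these, PIK3C3 229705_at reached a mean of 6 only on TGX221 and control arrays. Taking the brightest probe set of each gene, PIK3C2A and PIK3R4 fell and the other 3 genes did not pass, beside 58% of 19775 genes that were called, 24.7% lower and 33.3% higher.

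**Figure D3:**
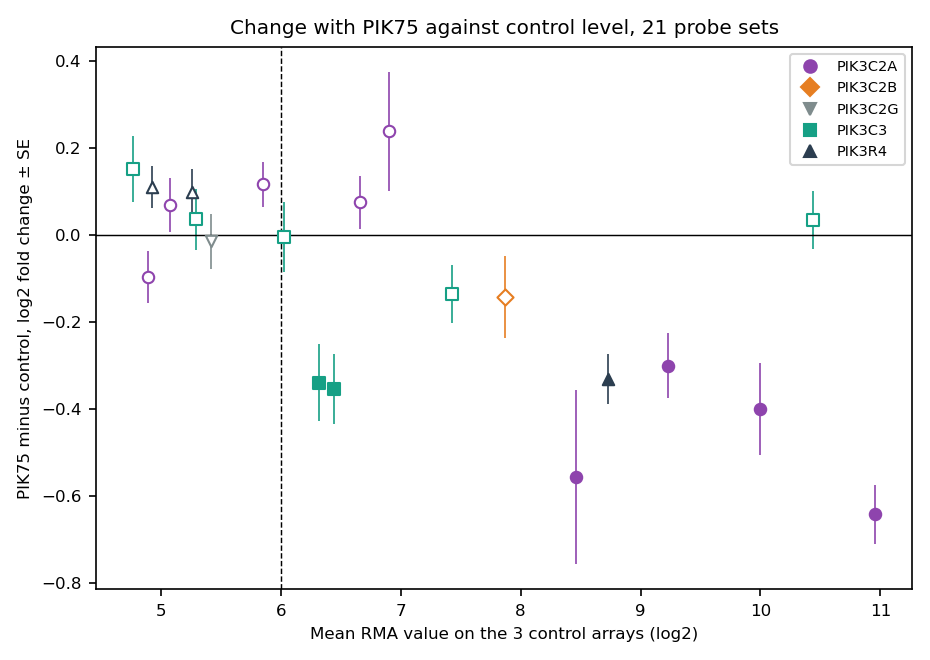
Mean normalised log2 level on the 3 control arrays (horizontal axis) and log2 change with PIK75 ± SE (vertical axis) for the 21 member probe sets, marked by gene, with filled points for an adjusted p below 0.05 and a dashed line at a level of 6. The 8 probe sets with every group mean under 6 are all open, and the largest fall, -0.64, belongs to PIK3C2A 213070_at.

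Whether probe sets of 1 gene moved apart was tested with limma's diffSplice, which sets the log2 change of each probe set against the average of the others of its gene. Of the 19 member probe sets that could be tested, 10 differed from the rest of their gene at an adjusted p below 0.05, 5 below and 5 above, beside 40.6% of 31839 probe sets in the whole table. Those below were PIK3R4 212740_at by 0.44 (adjusted p 3.24e-06), PIK3C2A 213070_at by 0.54 (0.000492) and 1553694_a_at by 0.44 (0.00429), and PIK3C3 239300_at by 0.31 (0.00391) and 229705_at by 0.29 (0.00652). PIK3C2A 241905_at stood above the rest of its gene by 0.46 (adjusted p 0.00303). The others above were PIK3C2A 1569588_x_at by 0.32 (0.0411), PIK3C3 241304_at by 0.28 (0.0101), and PIK3R4 216752_at by 0.23 (0.00638) and 216436_at by 0.21 (0.0115). These others had every group mean under 6, and none of the 5 above was called with PIK75 against control. In 1 alternative only probe sets with a mean level at or above the median of all were kept, a stricter cut than a level of 6. It left 8 members, and 0 of the 6 then testable differed. PIK3R4 could not be tested there. Without PIK75 replicate 5 or without control replicate 1, the count was 6 in each case. On simulated data diffSplice also called 48 genes without a simulated difference, so part of these calls may be false.

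TGX221 changed no member past the threshold. Of the 21 probe sets 0 were called in limma, beside 0.269% of the whole table, and 3 had an unadjusted p under 0.05: PIK3C2B 204484_at, PIK3R4 212740_at and PIK3C3 1569272_at, with log2 changes of -0.37, -0.15 and -0.17. Over all probe sets, 16.4% had an unadjusted p under 0.05 in this comparison. The groups did not overlap for 4 of 21, or 21.6% over all probe sets. For PIK3C2A 213070_at the 95% interval of the log2 change was -0.23 to 0.06.

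Between PIK75 and TGX221, whose doses differ, 4 members were lower with PIK75, 1 was higher and 16 did not pass, a share of 23.8% against 37.2% of the whole table, of which 16.9% were lower and 20.3% higher. The groups did not overlap for 8 members, or 48.1% over all probe sets. PIK3C2A 213070_at averaged 10.31 with PIK75 and 10.87 with TGX221, a difference of -0.56 (adjusted p 4.61e-05). The others that were lower were PIK3C2A 235792_x_at by 0.26 (adjusted p 0.0164), PIK3C3 239300_at by 0.32 (0.00843) and PIK3R4 212740_at by 0.18 (0.0258). The call of PIK3R4 was lost in 7 of 21 alternatives, among them those without PIK75 replicate 3 (adjusted p 0.0776) or 5 (0.0658) or TGX221 replicate 2 (0.0858) or 3 (0.0742). With the actin difference as a covariate only PIK3C2A 213070_at of these 4 passed, and with the probe sets of PIK3C2A averaged first its difference was -0.10 (adjusted p 0.134). The call of 235792_x_at was lost without PIK75 replicate 5 (0.0535) or TGX221 replicate 3 (0.0705). PIK3C3 1569272_at, with group means under 6, was 0.21 higher (adjusted p 0.0341), a call lost in 11 of 18 alternatives, including those without PIK75 replicate 3 (0.131) or 5 (0.0559) or TGX221 replicate 2 (0.0793) or 5 (0.133). PIK3C2B was 0.22 higher with PIK75 than with TGX221, which did not pass (adjusted p 0.0829).

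Genes that act with these enzymes were read by the brightest probe set of each, and 93 of 97 listed genes were analysed here. Over all genes read this way, 33.3% rose and 24.7% fell with PIK75. Of 10 partners of PIK3C3, 4 rose with PIK75, 0 fell and 6 did not pass, with a median log2 change of 0.03 against 0.09 over all genes, a sign that turned with arrays centred on medians (-0.02). BECN1, the shared subunit of both PIK3C3 complexes, read 10.88, 10.83 and 10.66 with PIK75 and 10.51, 10.44 and 10.54 in control, a change of 0.30 (adjusted p 0.00402). ATG14, the subunit for autophagy, changed by 0.27 (0.0112), UVRAG, the subunit for endosomes, by 0.22 (0.0206), and AMBRA1, a regulator of BECN1, by 0.25 (0.00117). These rises depend on the scaling: with arrays scaled on the spikes added to the RNA before labelling 0 of the 10 were called, and with scaling on the hybridisation spikes 6 were lower and 0 higher. ATG14 also lost its call after cyclic loess (adjusted p 0.126) and with the actin covariate (0.0961), and UVRAG with median centring (0.0764), without PIK75 replicate 1 (0.0755) and without control replicate 3 (0.0525).

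Of 15 genes of the myotubularin and INPP4 families, 8 fell, 1 rose and 6 did not pass (median -0.17). Active myotubularins remove the phosphate of PI3P, several family members, SBF2 among them, lack catalytic activity, and the INPP4 enzymes make PI3P from the class II product PI(3,4)P2. INPP4A read 8.29, 8.17 and 8.44 with PIK75 and 9.74, 9.71 and 9.80 in control, a change of -1.45 (adjusted p 2.66e-08), while 3 of its 5 other probe sets did not pass. The myotubularin family members SBF2, MTMR2 and MTMR1 changed by -1.37, -0.77 and -0.67, and the other 2 probe sets of SBF2 did not pass. Of the 3 genes of the complex that turns PI3P into its bisphosphate, the kinase PIKFYVE changed by -0.73 and the phosphatase FIG4 by -1.59 (adjusted p 7.47e-06 and 5.11e-09), and the scaffold VAC14 rose by 0.21 (0.0215), a call lost under each of the 4 other scalings, with the actin covariate (0.111), without PIK75 replicate 1 (0.0583) and without control replicate 3 (0.0848). A dimmer probe set of PIKFYVE rose by 0.25. Of 33 PI3P-binding proteins, 15 fell, 7 rose and 11 did not pass (median -0.11). Among them the FYVE domain proteins WDFY1 and ZFYVE16 changed by -1.47 and -1.10, with a dimmer ZFYVE16 probe set 0.31 higher, the sorting nexin SNX6 by -0.54, with its other probe set 0.36 higher, and WDR45B, a beta-propeller protein of autophagy, by 0.69.

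Of 14 clathrin coat and endocytosis genes linked to class II enzymes, 7 fell, 4 rose and 3 did not pass (median -0.21). The scaffold ITSN1 changed by -0.99, the adaptor subunit AP2A2 by -0.73, the clathrin assembly protein PICALM by -0.67 and the dynamin DNM2, which cuts vesicles from the membrane, by 0.48. All 5 probe sets of PICALM fell, whereas 4 of the 8 of ITSN1 fell and 2 rose (by 0.32 and 0.29), and 2 of the 4 of AP2A2 and the other 2 of DNM2 did not pass. Of 11 small GTPases of endosomes, 4 fell, 1 rose and 6 did not pass (median -0.04): RAB4A, RHOQ and RAB11A changed by -0.46, -0.26 and -0.15, and RAB7A by 0.25, a call lost with both spike scalings, with another RAB7A probe set 0.38 lower. RAB11A lost its call in 6 of 21 alternatives, with -0.02 after cyclic loess, while its other 2 probe sets changed by -1.25 and -1.43, and a dimmer RHOQ probe set was 0.25 higher. The count of 5 called GTPases was 3 without PIK75 replicate 3 or control replicate 3 and 10 with scaling on the hybridisation spikes. With TGX221, 0 genes of any of these lists were called in limma, beside 0.324% of all genes. The number with an unadjusted p under 0.05 was 1 of 10, 3 of 15, 1 of 3, 8 of 33, 4 of 14 and 1 of 11, in the order of the lists above, beside 17.8% of all genes.

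**Figure D4:**
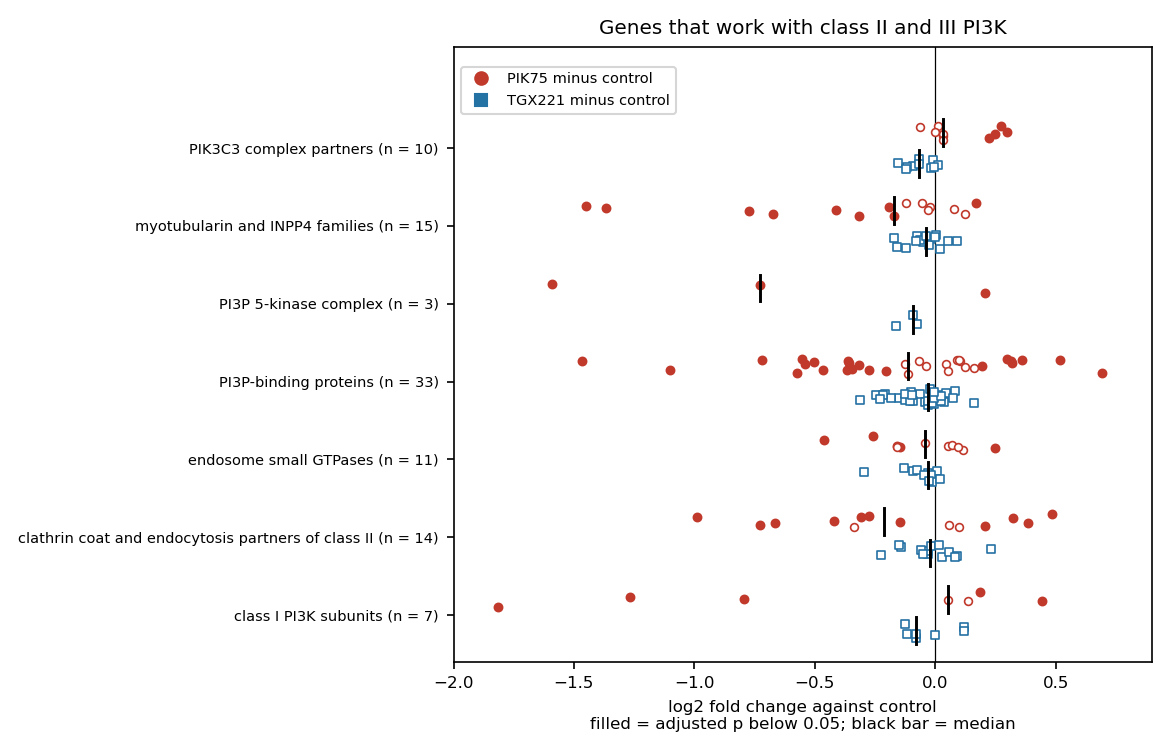
Log2 change against control (horizontal axis) of each measured gene in 7 lists (rows), by its brightest probe set, with PIK75 as circles, TGX221 as squares, filled symbols for an adjusted p below 0.05 and black bars for medians. PIK75 values run from -1.82 to 0.69, and no TGX221 symbol is filled.

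The class I subunits, the family the inhibitors are directed at, moved over a wider range with PIK75 than the class II and III genes. Of 7 genes analysed here, 3 fell, 2 rose and 2 did not pass. PIK3R3, a regulatory subunit, read 9.62, 9.55 and 9.58 with PIK75 and 11.40, 11.41 and 11.40 in control, a change of -1.82 (adjusted p 1.63e-09). PIK3CB, the p110β subunit, changed by -1.27 and PIK3R1, the p85α regulatory subunit, by -0.79, while PIK3CD, the p110δ subunit, changed by 0.44. Of the second probe sets of PIK3R3, PIK3CB and PIK3CD, that of PIK3R3 fell by 0.62 and the others did not pass. The brightest probe sets of the 5 class II and III genes lay between -0.64 and 0.03. The difference between the families was not tested.

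Across the 9 arrays, the genes whose profiles were most like PIK3C2A 213070_at among 17347 genes, by the root mean square difference after centring, were ANO6 (0.030 log2 units), C21orf91 (0.038) and CSRNP2 (0.040). They changed by -0.66, -0.70 and -0.59 with PIK75 and by -0.07, -0.13 and -0.11 with TGX221. For PIK3R4 212740_at they were HMCES (0.027), ZBTB5 (0.030) and SNX9 (0.038), which changed by -0.36, -0.34 and -0.37 with PIK75 and by -0.18, -0.14 and -0.13 with TGX221. SNX9 is a PX domain protein of clathrin-coated pits. With 3 levels of treatment and 3 arrays each, such likeness describes these arrays only.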

How the data were processed

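The authors deposited log2 expression levels for 9 arrays, made with RMA per the submitters' processing notes; its version, background settings and probe definitions are not given in the sources used here. RMA includes quantile normalisation, and its summary gives some arrays exactly equal values. Biotin-labelled cRNA came from 2 µg of total RNA, per the labels. One label gives the control treatment as none and the treatment protocol gives DMSO; the groups were taken from the sample titles. Of 54675 probe sets, 62 Affymetrix controls were left out. Symbols came from the platform annotation: 41091 probe sets had 1 symbol, 1801 several and 11721 none.

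Limma 3.58.1 (lmFit and eBayes, R 4.3.3) was fitted to 3 group means over all 9 arrays, with 6 residual and 5.63 prior degrees of freedom, and diffSplice tested probe sets within genes. Both were tested on simulated data made for PIK75 against control. Limma recovered 16 of 50 probe sets changed 1.25-fold, 39 of 50 changed 1.5-fold and 49 of 50 changed 2-fold, with 11 false calls among 54613. Small changes can therefore be missed. DiffSplice recovered 57 of 57 probe sets changed at least 2-fold, but also called 48 genes without a simulated difference over 31839 probe sets. Part of the diffSplice calls may therefore be false. The precision is limited by the 3 arrays per group. Members, lists and tests were chosen with earlier results of these data known. Text names every member, up to 4 called genes per list by smallest p, and the 3 nearest profiles. Alternatives were other scalings, covariates, filters, thresholds, probe set rules and left-out arrays; those for the lists were added after seeing the data.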

Additional observations from a re-analysis of the deposited data

How the results depend on the processing

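Between PIK75 and control, 350 of 396 repeats of single member results kept sign and side of the threshold, in 8 a value not called as reported was called with the opposite sign, and in 18 a value called neither time turned sign; PIK3C2A 213070_at kept both throughout. The members called numbered 7 as reported, 20 with hybridisation spike scaling, 2 by the brightest probe set and 1 by the mean of each gene's probe sets, 3 with the actin covariate, 1 at 1.5-fold or more, and 6 to 7 with 1 array left out. All probe sets called numbered 27400 as reported, 38423 with hybridisation spike scaling and 18709 with the actin covariate. They numbered 16203 with poly-A spike scaling, 11947 and 12369 by those gene rules, 18121 at an adjusted p below 0.01, 5139 at 1.5-fold, and 22309 to 27186 with 1 array left out. Members moving apart within a gene numbered 0 without dim probe sets and 6 to 10 with 1 array left out. Dim probe sets in this section are those whose mean level lay below the median of all probe sets.

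For TGX221 against control, 1 member was called with hybridisation spike scaling and 1 with array weights, and 0 to 1 with 1 array left out. All probe sets called numbered 12 with median centring, 927 and 886 with poly-A and hybridisation spikes, 84 with cyclic loess, 270 without dim probe sets, 239 and 30 by the gene rules, 0 with only both groups fitted, 2115 with array weights, 1 with the actin covariate, 0 at the stricter threshold, 4 at 1.5-fold, and 0 to 959 with 1 array left out.

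Between PIK75 and TGX221, members called numbered 17 with hybridisation spikes, 3 without dim probe sets, 2 and 0 by the gene rules, 1 with the actin covariate, 2 at the stricter threshold, 0 at 1.5-fold, and 2 to 5 with 1 array left out. All probe sets called numbered 34963 with hybridisation spikes, 9379 and 9608 by the gene rules, 13106 at the stricter threshold, 4294 at 1.5-fold, and 15923 to 19913 with 1 array left out. They numbered 14973 without dim probe sets and 14558 with the actin covariate.

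Turns of sign that involved a call came with hybridisation spike scaling. Uncalled values also turned elsewhere, as PIK3C3 204297_at did with median centring (-0.02), and not all of them were near 0. Between PIK75 and TGX221, PIK3C2A 1553694_a_at was -0.35 as reported and reached 0.14 among the alternatives. PIK3C2A 226094_at was -0.20 as reported and reached 0.01. With hybridisation spikes, against control, PIK75 gave -0.2766, -0.2827 and -0.2345 for PIK3C2A 1569022_a_at, 1569587_at and 1569588_x_at, -0.315, -0.3178 and -0.2005 for PIK3C3 1569272_at, 204297_at and 241304_at, and -0.2532 and -0.2414 for PIK3R4 216436_at and 216752_at. AMBRA1 had -0.1038, ATG14 -0.07727, BECN1 -0.05555, RAB7A -0.1024, UVRAG -0.1306 and VAC14 -0.1441. Against TGX221 it gave -0.1984 and -0.1878 for PIK3C2A 1569022_a_at and 1569588_x_at, -0.2165 for PIK3C2G 215129_at, -0.07643, -0.1752, -0.2474 and -0.1981 for PIK3C3 1569272_at, 204297_at, 215394_at and 241304_at, and -0.1997 and -0.2113 for PIK3R4 216436_at and 216752_at. The construction shows the cause: the spikes read higher on PIK75 arrays, so this scaling lowers every PIK75 value. The cause of the other changes was not tested.

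The labels do not say whether shared array numbers pair the arrays. Deviations from the group means correlated at -0.0728, 0.0929 and -0.000879 for the numbers shared by PIK75 and control. For those shared by TGX221 and control they correlated at 0.0531 and 0.00531, and for PIK75 and TGX221 at 0.0707 and 0.224. Deviations from a mean of 3 arrays depend on each other, so these values cannot settle whether the arrays were paired. With the number as a replicate block, 8 members were called between PIK75 and control (7 lower, and PIK3C2A 241905_at higher by 0.24, adjusted p 0.0104), 0 between TGX221 and control and 5 between the inhibitors, and 13 moved apart within a gene. Over all probe sets the block gave 25970, 0 and 16344.

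With 3 arrays per group and RMA values only, levels near background cannot be told from absence of expression, and probe-level signal was not analysed here. Changes common to most genes are set by the scaling.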
